A study of Mus musculus with 4 samples.

Results

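miR-204 and miR-211 are 2 miRNAs of one seed family, and the deposited table listed both arms of each hairpin, which makes 4 of its 942 mature miRNAs. They were taken by their number, and the pair was chosen by the reads of miR-211-5p, which were higher in the transgenic mouse of both sibling pairs, so the levels by genotype describe that choice and were not tested. The cortex of 4 mice was sequenced at 9 months of age, on the B6C3 background. The 2 wild type mice (WT1 and WT2) carried neither transgene. The 2 AD mice (APP3 and APP4) had the genotype APPswe/PS1deltaE9. One transgene is a humanized APP with the Swedish mutation, the other is human presenilin 1 lacking exon 9, and the expression of both is targeted to neurons. The siblings were WT1 with APP4 and WT2 with APP3, so each pair held 1 mouse of each genotype. The libraries held between 19048747 and 26085776 miRNA reads, and levels are given as reads per 1000000 miRNA reads of the library (RPM).

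A miRNA is cut from a hairpin, and usually one arm enters the silencing complex and the other is degraded. The arm that is kept finds its targets mainly through the seed, bases 2 to 8 from the 5′ end, so miRNAs with one seed share most of their predicted targets. Both hairpins lie in genes of TRPM cation channels. Trpm3, the host of miR-204, is active in the choroid plexus, the retinal pigment epithelium and parts of the brain. Trpm1, the host of miR-211, is known from melanocytes and the bipolar cells of the retina. miR-204 is known as an abundant miRNA of the choroid plexus and the pigment epithelium, and miR-211 as a miRNA of pigment cells.

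All 4 arms were matched by name to RefSeq on GRCm38.p6. The arms are shown because the count of miR-211-5p rests on how well it can be told apart from miR-204-5p, and the seed of each is in capitals.
miR-204-5p: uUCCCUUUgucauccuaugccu
miR-211-5p: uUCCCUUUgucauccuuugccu
miR-204-3p: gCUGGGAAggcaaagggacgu
miR-211-3p: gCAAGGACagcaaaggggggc
The 5p arms share the seed UCCCUUU and differ at 1 of 22 positions, A17U, where the base of miR-204-5p comes first and positions count from 1 at the 5′ end. The 3p arms have unlike seeds and differ at 7 of 21 positions. Within 2 mismatches, no other mature miRNA of the reference resembled any of the 4 arms. Besides these 2, the seed of the 5p arms occurred in miR-7670-3p, for which no row was analysed here.

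On GRCm38.p6 the hairpin Mir204 lies on the plus strand at chr19:22750605-22750672. In the GENCODE vM21 annotation it falls within an intron of each of the 18 Trpm3 transcripts that span it, and in an annotated transcript with the most exons this is intron 6, of 33462 bases. Mir211 lies on the plus strand at chr7:64205806-64205911, within an intron of each of the 12 spanning Trpm1 transcripts, and in one with the most exons this is also intron 6, of 3682 bases. Both hairpins have the strand of their host. Host transcripts were not measured in these libraries.

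miR-204-5p was one of the more abundant miRNAs of the cortex, and it was lower in both AD mice than in either WT mouse, by a small margin. WT1 and WT2 had 3484 and 4370 RPM, and APP3 and APP4 had 3472 and 2900, which put miR-204-5p between the 38th and the 50th place of all miRNAs. WT1 and APP3 lay next to each other, and WT2 and APP4 lay at the ends. The WT mice averaged 3927 ± 627 RPM (SD, n = 2) and the AD mice 3186 ± 404 RPM (SD, n = 2), a ratio of 0.811, and the step from WT1 to APP3 was far smaller than the spread within either genotype.

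miR-211-5p had far fewer reads and the opposite order. WT1 and WT2 had 15.7 and 17.0 RPM, from 409 and 376 reads, and APP3 and APP4 had 33.3 and 25.6 RPM, from 708 and 487 reads. Both AD mice lay above both WT mice, and APP3 stood highest. The WT mice averaged 16.4 ± 0.955 RPM (SD, n = 2) and the AD mice 29.4 ± 5.46 RPM (SD, n = 2), a ratio of 1.799. Since this pattern is why miR-211-5p was looked at, the ratio carries no test. In whole cortex, more cells that make a miRNA and more of it per cell cannot be told apart.

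The passenger arms had few reads, and miR-211-3p was close to the limit of detection. For miR-204-3p, 34 and 37 reads were counted in WT1 and WT2 and 30 and 39 in APP3 and APP4, or 1.30, 1.68, 1.41 and 2.05 RPM, and the genotypes overlapped. miR-211-3p had 0 reads in WT1, WT2 and APP4 and 2 in APP3. A count of 0 allows a level of up to 0.115 RPM in WT1, 0.136 in WT2 and 0.157 in APP4, so no difference in miR-211-3p was detectable at this depth. Counting intervals and these limits cover counting error only, since PCR copies are not independent molecules.

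**Figure D1:**
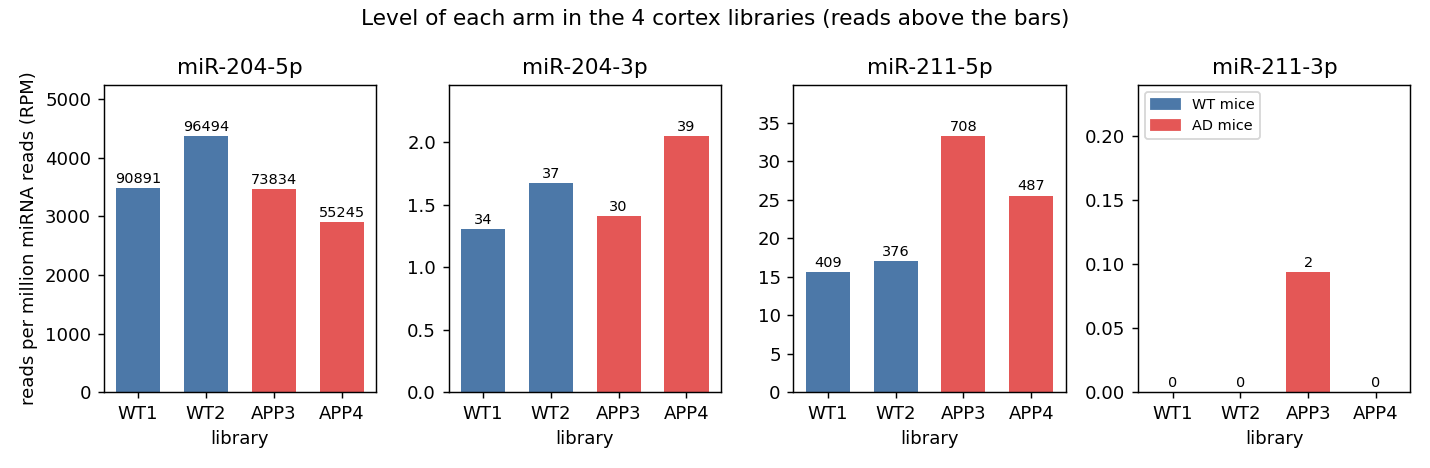
Level of miR-204-5p, miR-204-3p, miR-211-5p and miR-211-3p in reads per 1000000 miRNA reads (y axis, own scale in each panel, from 0) in the 4 cortex libraries (x axis), with WT mice in blue, AD mice in red and the read count above each bar. miR-211-5p is at 15.7 and 17.0 RPM in the WT mice and at 33.3 and 25.6 in the AD mice, and miR-204-5p runs from 2900 to 4370 with both AD mice below both WT mice.

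Of the 379 miRNAs that averaged 10 RPM or more, 28% had both AD mice above both WT mice, as miR-211-5p did, and 7.92% had both below, as miR-204-5p did. In the AD mouse of both sibling pairs, 41.2% of these miRNAs were higher. The orders of the 2 members are therefore shared with other miRNAs, and nothing is read from them.

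A read of miR-204-5p with the change A17U would match miR-211-5p exactly, so the 2 counts may not be fully separate. The ratio of the 5p arms within a library needs no scaling. For each 1000 reads of miR-204-5p there were 4.50 and 3.90 reads of miR-211-5p in WT1 and WT2, and 9.59 and 8.82 in APP3 and APP4. These ratios hold the reads that the choice used, and how many of the reads of miR-211-5p began as miR-204-5p was not tested. As a share of the 5p reads of both hairpins, miR-211-5p made up 0.448% (95% Wilson interval 0.407 to 0.493) and 0.388% (0.351 to 0.429) in WT1 and WT2, and 0.950% (0.883 to 1.02) and 0.874% (0.800 to 0.955) in APP3 and APP4.

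Within a genotype, the share was tested. The choice of miR-211-5p rested on the sibling pairs, but it used the same reads, so these tests are not free of it. In Fisher's exact test, two-sided and adjusted over 6 such comparisons, it did not differ past the threshold between WT2 and WT1 (p = 0.0451, adjusted p = 0.135) nor between APP4 and APP3 (p = 0.159, adjusted p = 0.317). These tests compare 2 libraries. The share of the 3p arm within miR-204 was 0.0374% (0.0268 to 0.0522) and 0.0383% (0.0278 to 0.0528) in WT1 and WT2, and 0.0406% (0.0285 to 0.0580) and 0.0705% (0.0516 to 0.0964) in APP3 and APP4. APP4 stood highest, and its difference from APP3 did not pass the exact test after adjustment (p = 0.0278, adjusted p = 0.135). Between the WT mice the exact p was 1.

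The 3p arm gave no independent count of miR-211. Over all libraries miR-204-3p had 140 reads beside 316464 of the 5p arm, or 0.0442% of the hairpin, and at this arm ratio the 1980 reads of miR-211-5p would come with 0.876 reads of miR-211-3p, where 2 were counted. The 2 reads in APP3 were 0.282% of its miR-211 reads (0.0773 to 1.02), and 0 of 409 reads in WT1 allows a share of up to 0.733%. The Mir211 hairpin was therefore seen almost only through the arm that resembles miR-204-5p.

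**Figure D2:**
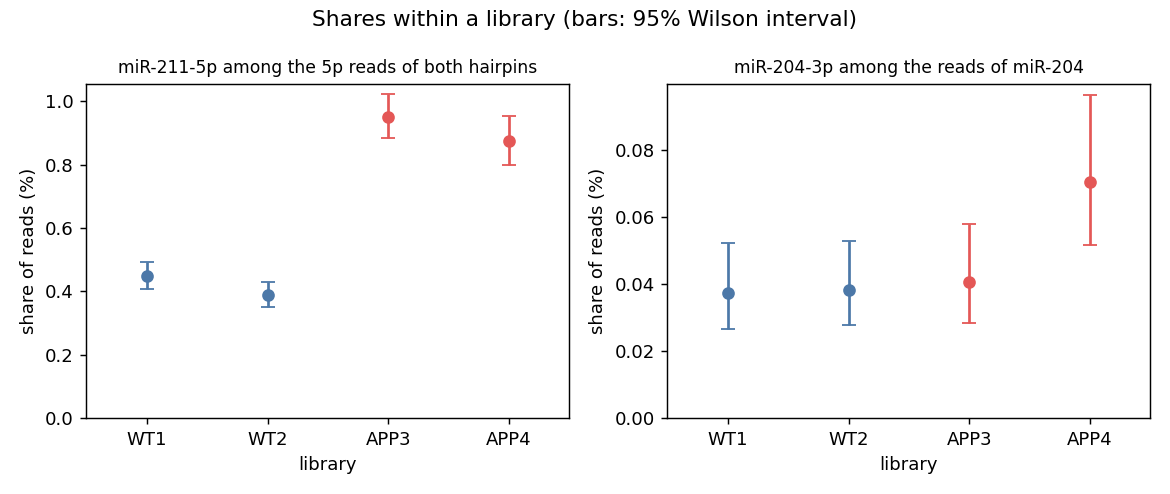
Share of miR-211-5p among the 5p reads of both hairpins (left) and of miR-204-3p among the reads of miR-204 (right), in percent (y axis, from 0), for each library (x axis), with WT mice in blue and AD mice in red. Points are the shares and bars the 95% Wilson intervals, and on the left the WT mice are at 0.448% and 0.388% and the AD mice at 0.950% and 0.874%.

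Within the sibling pairs, miR-211-5p and miR-204-5p went in opposite directions. A miRNA counts as called here at a false discovery rate (FDR) under 0.05 by Fisher's exact test on the reads of 2 libraries and at least 1.5-fold, the limits named in the study's methods, and log2 differences have 0.5 read added. Between APP4 and WT1 the log2 difference of miR-211-5p was 0.71 (counting SE 0.10), or 1.63-fold, and between APP3 and WT2 it was 0.97 (SE 0.09), or 1.95-fold. Both differences are over 1.5-fold, and since the choice used these reads no test result is given for them. Over all miRNAs, 11.6% of 899 were called in the first pair (9.68% called higher in APP4) and 6.81% of 896 in the second (3.35% called higher in APP3). Of the 379 miRNAs that averaged 10 RPM or more, its difference was the 23rd highest in the first pair and the 2nd highest in the second.

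In the first pair the place of miR-211-5p past 1.5-fold rested on the scaling. APP4 gave a median log2 difference of 0.18 from WT1 over these 379 miRNAs, and TMM library sizes lowered every difference of this pair by 0.18. miR-211-5p then stood at 0.52, or 1.44-fold, under the limit of 1.5-fold. With DESeq2 size factors it stood at 0.51. In the second pair TMM gave 0.94 and left it past the limit.

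For miR-204-5p the first pair gave a log2 difference of -0.26 (SE 0.01) and the second one of -0.33 (SE 0.01), short of 1.5-fold in both. These were the 39th and the 47th lowest of the 379 miRNAs. With TMM library sizes the differences were -0.45 and -0.36. miR-204-3p differed by 0.65 in the first pair (95% counting interval -0.01 to 1.31) and by -0.24 in the second (-0.93 to 0.45), so neither difference exceeded its counting error.

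Within a pair, the difference of miR-211-5p minus that of miR-204-5p needs no scaling. It holds the reads that the choice used and is a description only. On the log2 scale it came to 0.97 (SE 0.10) for APP4 and WT1 and to 1.30 (SE 0.09) for APP3 and WT2. Within a genotype it came to -0.21 (SE 0.10) for the WT mice and to -0.12 (SE 0.09) for the AD mice. The sum of both 5p arms follows miR-204-5p, which supplied nearly all of its reads, and averaged 3944 ± 628 RPM (SD, n = 2) for WT and 3215 ± 410 RPM (SD, n = 2) for AD mice. The reads of the shared seed were thus not higher in the AD mice.

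Mice of one genotype gave the spread against which these values stand, for miR-211-5p from reads that the choice also used. Between the WT mice miR-211-5p differed by 0.12 (SE 0.10, FDR 0.430 by Fisher's exact test), within counting error. Between APP4 and APP3 it differed by -0.38 (SE 0.08, FDR 2.76e-05 by Fisher's exact test), which is more than counting error and less than 1.5-fold. miR-204-5p differed by 0.33 (SE 0.01) between WT2 and WT1 and by -0.26 (SE 0.01) between APP4 and APP3, both at an FDR under 0.05 and under 1.5-fold, sizes as large as its differences within the sibling pairs. miR-204-3p differed by 0.36 (FDR 0.541) and 0.53 (FDR 0.319) by the same exact test. None of the 3 members with at least 3 reads was called within a genotype, where 10.1% of 879 miRNAs were called between the WT mice and 8.05% of 907 between the AD mice.

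**Figure D3:**
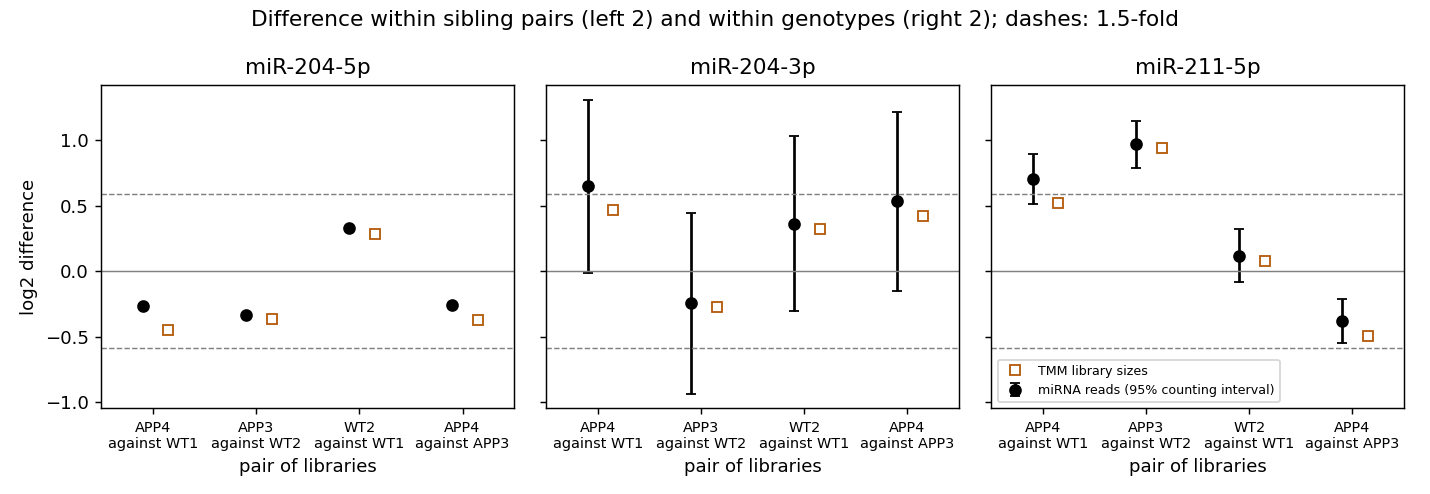
Log2 difference (y axis) of miR-204-5p, miR-204-3p and miR-211-5p in the 2 sibling pairs and within each genotype (x axis). Black points with bars are differences of reads scaled to the miRNA sum with 95% counting intervals, open squares the same with TMM library sizes, and dashed lines 1.5-fold; miR-211-5p is at 0.71 and 0.97 in the sibling pairs, and at 0.52 with TMM in the first.

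**Figure D4:**
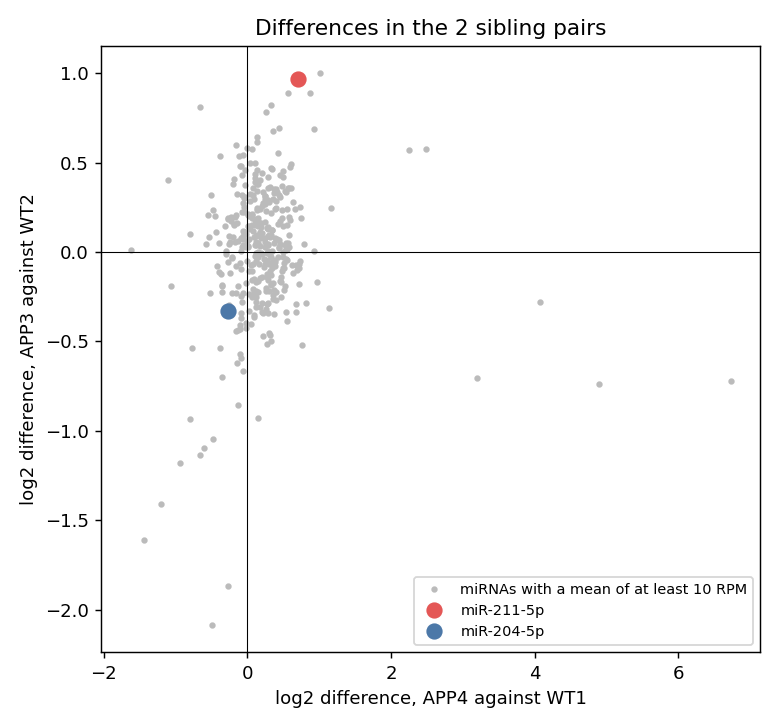
Log2 difference between APP4 and WT1 (x axis) against that between APP3 and WT2 (y axis) for the 379 miRNAs that averaged 10 RPM or more (grey points), with miR-211-5p in red and miR-204-5p in blue. miR-211-5p lies at 0.71 and 0.97, near the top, and miR-204-5p at -0.26 and -0.33, 39th and 47th from the lowest.

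With the 4 mice as replicates, edgeR's quasi-likelihood fit gave a log2 fold change of AD against WT mice of 0.72 (SE 0.24) for miR-211-5p, -0.43 (SE 0.21) for miR-204-5p and 0.08 (SE 0.31) for miR-204-3p. miR-211-3p did not pass the filter on low counts, so 3 of the 4 members were fitted, and no p is given for them because the choice used this contrast. Over all miRNAs past this filter, edgeR's test called 0 of 623 (0%) at an adjusted p under 0.05 and gave 36 an unadjusted p under 0.05. DESeq2's Wald test, run on 942 miRNAs without this filter, gave 0 and 28. The size of the change rested on single mice. Without APP3 the log2 fold change of miR-211-5p was 0.44, and without APP4 it was 0.94. That of miR-204-5p was -0.25 without APP4, -0.28 without WT2, -0.54 without WT1 and -0.63 without APP3.

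miRNAs of other cell types were read beside these levels. The cortex markers miR-124-3p, miR-9-5p and miR-128-3p were abundant in each library, and the 6 neuronal miRNAs summed to between 73835 and 81573 RPM. Of the 7 listed miRNAs of ciliated cells and choroid plexus epithelium, the cell type where miR-204 is best known, 6 were in the table. They summed to 323 and 327 RPM in WT1 and WT2 and to 344 and 436 RPM in APP3 and APP4. Both AD mice lay above both WT mice for 3 of the 6, where 28% of the 379 miRNAs that averaged 10 RPM or more did so. These were miR-34b-5p with 6.63 and 6.48 RPM in WT1 and WT2 and 9.22 and 8.98 in APP3 and APP4, miR-34c-5p with 294, 291, 305 and 399.6, and miR-449c-5p with 0, 0, 6 and 7 reads. The 28% was taken at a minimum of 10 RPM, which miR-34b-5p and miR-449c-5p did not reach, so it is no like measure for them. For miR-34c-5p the order rested on the scaling. With TMM library sizes, at factors of 0.950 for WT1 and 0.998 for APP3, WT1 lay above APP3. miR-449a-5p, a defining miRNA of ciliated cells, had 7.02, 8.33, 8.56 and 8.24 RPM, and the genotypes overlapped. The part of these cells in the level of miR-211-5p was not tested.

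APP4 stood apart in the list of other epithelium and sensory tissue, the miR-200 family and the miR-182, miR-183 and miR-96 cluster among it, which summed to 6198 RPM there against 1335 in WT1, 852 in WT2 and 1140 in APP3. In APP4, miR-182-5p alone had 3833 RPM. Other members of the list did not rise so. In WT1, WT2, APP3 and APP4, miR-375-3p had 122, 104, 152 and 118 RPM. In the same order miR-203-3p had 185, 169, 182 and 214, and miR-205-5p 3.07, 3.03, 2.87 and 3.88. The part of this list in the levels of miR-204 and miR-211 was not tested. The 4 blood miRNAs summed to 4001 and 4642 RPM in WT1 and WT2 and to 4060 and 3223 in APP3 and APP4, and miR-486-5p made up nearly all of this sum. The other 3, miR-451a, miR-144-3p and miR-144-5p, were lowest in WT1. Both AD mice lay above both WT mice for 1 of 6 neuronal, 1 of 3 oligodendrocyte, 1 of 4 vessel and 2 of 4 microglial miRNAs. They lay below both for 1 of 4 blood, 2 of 4 vessel and 1 of 4 muscle and liver miRNAs. Of the 11 listed miRNAs of other epithelium, 0 did either. Among the 379 miRNAs that averaged 10 RPM or more, 28% lay above and 7.92% below. Some of the listed miRNAs averaged less than 10 RPM and are not among the 379.

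By profile over the 4 libraries, the 2 members were far from each other. Likeness was taken as the root mean square of the difference between 2 profiles of log2 RPM, each centred on its own mean, among miRNAs that averaged 10 RPM or more. Nearest to miR-211-5p were miR-434-3p at 0.066, miR-138-5p at 0.16, miR-331-3p at 0.17, miR-702-3p at 0.17 and miR-1843b-3p at 0.17, where the median over 378 miRNAs was 0.43. miR-434-3p, an imprinted miRNA opposite to Rtl1, had 9314, 11327, 21035 and 16971 RPM in WT1, WT2, APP3 and APP4. miR-138-5p, known from dendritic spines, had 1666, 2447, 3948 and 3174. miR-204-5p came 333rd of the 378, at 0.57.

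Nearest to miR-204-5p were miR-486-5p at 0.062, miR-3107-5p at 0.063, miR-874-3p at 0.066, miR-3082-3p at 0.069 and miR-666-5p at 0.079, with a median of 0.31 over the 378. miR-486-5p, an abundant miRNA of red blood cells, had 3900 and 4417 RPM in WT1 and WT2 and 3881 and 3053 in APP3 and APP4. miR-3107-5p had nearly the same level in each, with 3877, 4390, 3858 and 3027, so these 2 entries are not independent neighbours. The other listed blood miRNAs, miR-451a, miR-144-3p and miR-144-5p, had another profile and were lowest in WT1. For miR-451a the levels were 91.4 and 200 RPM in WT1 and WT2 and 159 and 146 in APP3 and APP4. Over 4 libraries likeness is a description only.

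**Figure D5:**
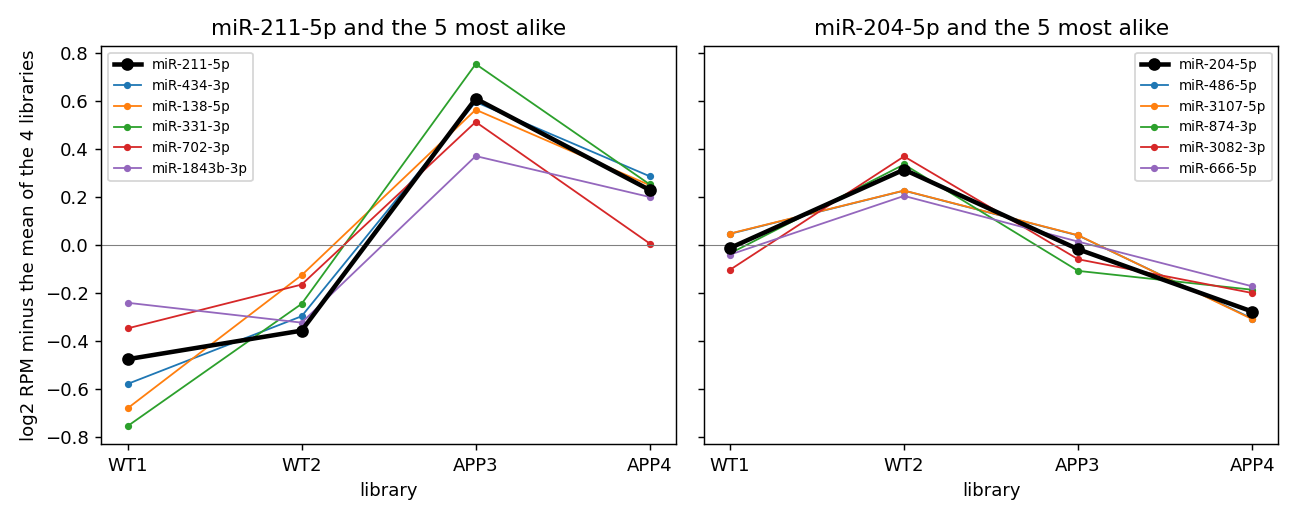
Log2 RPM minus the mean over the 4 libraries (y axis) in each library (x axis) for miR-211-5p (left, black) and miR-204-5p (right, black), each with its 5 most alike miRNAs in colour. The profile of miR-211-5p is lowest in WT1 and highest in APP3, and that of miR-204-5p is highest in WT2 and lowest in APP4.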

How the data were processed

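Small RNA of 4 mouse cortexes was sequenced by the authors, who kept reads of 18 to 35 nt, matched them to miRBase with Bowtie and counted mature and variant reads with CLC Genomics Workbench. The methods allow 2 mismatches in this step, and also state that none was allowed for miRBase. In each library the miRNA reads used here exceed the perfect miRBase matches given in the paper's supplement. The counts therefore include reads with mismatches. The authors deposited raw read counts of 942 mature miRNAs, and beside them RPM relative to the clean reads, headed TPM and used here only as an alternative scaling. The paper names GRCm38, and the submitters' processing notes name mm9 and CASAVA 1.8. The table holds no coordinates, so positions are those of GRCm38.p6.

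Here counts were scaled to the miRNA reads of each library, from 19048747 to 26085776. Pairs of libraries were compared over all miRNAs by Fisher's exact test, two-sided (scipy 1.17.1), with Benjamini-Hochberg adjustment, and genotypes with edgeR 4.0.16 (filterByExpr, TMM, quasi-likelihood) without a block. The SE is the size of the log2 fold change over the square root of F. Both tests were tested on simulated data. DESeq2 1.42.0 was the other tool. The sibling pairs come from the paper's methods, not the labels. The deviations of siblings from their genotype means correlated with r = 0.14 across 379 miRNAs. With 2 mice per genotype both sibling pairs give this same value by construction, and nothing is read from it.

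The members, marker lists and tests were chosen with earlier results of these data known. The named miRNAs were the members, the 5 most alike to each 5p arm and the marker lists. The labels give 2 separate mice per genotype. Alternatives were TMM or DESeq2 size factors, clean-read scaling, 5 reads added, sums over both hairpins, a 10 or 50 RPM minimum, a 2-fold limit, no TMM, no filter, the sibling block and each mouse left out. The qRT-PCR, target predictions and unannotated candidates were not analysed here.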

Additional observations from a re-analysis of the deposited data

Results flagged for a closer look

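The sibling pairs went in opposite directions for miR-204-3p, with a log2 difference of 0.65 between APP4 and WT1 and of -0.24 between APP3 and WT2. Whether the pairs differ could not be tested with 1 mouse per genotype in each, and was not tested, and both 95% counting intervals hold 0 at 30 to 39 reads per library.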

How the results depend on the processing

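Of 112 recomputed values, 91 were counted as unchanged. Sibling-pair and edgeR differences of a member counted so if they moved by less than the spread between mice. They could still cross 1.5-fold, as miR-211-5p did with TMM between APP4 and WT1. They could also change sign. The edgeR log2 fold change of miR-204-3p went from 0.08 to -0.06 without WT1 and to -0.15 without APP4. Within-genotype differences had to stay uncalled, and shares within their Wilson interval. Numbers of Fisher calls had to stay within 1.5-fold, and edgeR calls the same. Of the 5 most alike miRNAs, 4 had to be kept. With both hairpins summed, the log2 difference in place of that of miR-211-5p was -0.26 between APP4 and WT1 and -0.32 between APP3 and WT2, since miR-204-5p supplied nearly all the reads. With DESeq2 size factors miR-211-5p stood at 0.51 between APP4 and WT1 and with TMM at 0.52, both under the limit of 1.5-fold. With 3p in place of 5p reads, the share of miR-211 was 0% in WT1, WT2 and APP4 and 6.25% in APP3, from 2 reads. A minimum of 10 RPM also left fewer miRNAs to test, so its counts have smaller totals and do not show a lower share called. It gave 50 called miRNAs in place of 104 between APP4 and WT1, and 30 in place of 61 between APP3 and WT2. Between the WT mice it gave 36 in place of 89, and between the AD mice 39 in place of 73. A limit of 2-fold gave 50, 23, 38 and 38 in the same order. With the sibling pair as a replicate block, edgeR called 2 miRNAs in place of 0, and miR-211-5p had a log2 fold change of 0.70. Without 1 mouse it lay between 0.44 and 0.94, and the number of calls between 0 and 21, with 21 without APP3, 5 without APP4, 3 without WT1 and 0 without WT2. With 1 mouse left in a genotype, that mouse is assumed to vary like the others. At least 4 of the 5 miRNAs most like either 5p arm were kept with TMM or a minimum of 50 RPM.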
